A study of Mus musculus with 4 samples.

Results

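The genes described are 35 chaperones, disulfide isomerases, degradation factors and stress regulators of the endoplasmic reticulum (ER), chosen by gene symbol from a named list among the 24411 symbols of the count table. All 35 were in the table and passed the filter on low counts. They were measured by RNA sequencing of sublingual glands, mucous salivary glands of the mouse, taken from females of the C57BL/6J background that lack both alleles of the homeobox gene Nkx2.3 (Nkx2.3-/-). The groups were knockout glands at 32 weeks of age (replicates 3 and 4) and knockout glands at 8 weeks of age (replicates 1 and 2), with 2 libraries at each age. Both ages carry the knockout and no gland with intact Nkx2.3 was analysed here, so the comparison is of age within the knockout. Which part of the gene was removed, whether each library came from 1 animal, and whether glands were pooled are not stated in the labels.

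The ER is where secreted and membrane proteins fold, and the acinar cells of a salivary gland, which export large amounts of glycoprotein, carry much of it. Chaperones such as Hspa5 bind nascent chains, the lectins Calr and Canx hold glycoproteins, disulfide isomerases pair cysteines, and chains that fail to fold are sent back to the cytosol for degradation. When unfolded chains build up, the sensors encoded by Ern1, Eif2ak3 and Atf6 signal through the transcription factors Xbp1, Atf4 and the cleaved form of Atf6, which raise the genes of folding and degradation. This programme is the unfolded protein response. The branch through Eif2ak3 and Atf4 overlaps with the integrated stress response, which also answers shortage of amino acids.

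The promoters of these genes are known for short elements read by those factors. Promoter sequence was not used to choose the genes, but their known part in these responses was. A share of matches above that of all genes is thus no independent result. RefSeq promoter sequences (build GRCm38.p6, 250 bases before to 50 bases after each transcription start) were found for 31 of the 35 genes, 29 by symbol and 2 (Ero1l and Ero1lb) by a newer symbol. Hyou1, Manf, Derl1 and Atf6 were not matched. Exact matches were sought on both strands to the ER stress response element (ERSE, which is CCAAT, then any 9 bases, then CCACG), to ERSE-II (ATTGG and CCACG with any 1 base between), to the unfolded protein response element (UPRE, TGACGTGG) and to the element bound by C/EBP and ATF factors (CARE, TGATGNAAN). ERSE matched in 9 of the 31 promoters (29.0%), against 37 of all 27025 genes with a promoter (0.137%), and the 9 are among the 37. The ERSE matches, read on the strand that carries the element and with its fixed bases in capitals, were these.
Hspa5: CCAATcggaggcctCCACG
Hsp90b1, far match: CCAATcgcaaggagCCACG
Hsp90b1, near match: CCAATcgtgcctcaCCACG
Dnajc3: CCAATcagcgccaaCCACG
Creld2: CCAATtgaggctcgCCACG
Calr: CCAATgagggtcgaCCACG
Canx: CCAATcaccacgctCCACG
Pdia6: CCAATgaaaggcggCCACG
Ero1lb: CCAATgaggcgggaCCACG
Syvn1: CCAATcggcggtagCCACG

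Hsp90b1 alone held a pair of exact ERSE matches. They lay from -212 to -194 on its own strand and from -107 to -89 on the opposite strand, counted from the transcription start. The nearest to a start was that of Syvn1, at -44 to -26, followed by that of Hspa5, at -65 to -47. ERSE-II matched in 2 promoters (6.45%, against 0.0444% of all genes), those of Dnajb11 and Herpud1. No exact match to the UPRE letters TGACGTGG was found in the 31 windows (0%, against 0.714% of all genes). Forms that differ from the letters given were not sought for any element. CARE matched in 4 promoters (12.9%, against 4.5% of all genes). Of these, Trib3, Asns and Chac1 are listed here as targets of the integrated stress response, and Herpud1 belongs to degradation. These matches are a description of letters and carry no measurement of binding in the gland.

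The promoters of Hspa5, Herpud1 and Asns are printed whole because they stand for the element types found: an ERSE, an ERSE-II together with a CARE, and a CARE alone. Capitals mark each match, 5′ to 3′ on the strand of the gene. They lie at chr2:34771840-34772139 (plus strand), chr8:94386179-94386478 (plus strand) and chr6:7693160-7693459 (minus strand) of GRCm38.p6, a later build than the mm9 of the counts.
Hspa5: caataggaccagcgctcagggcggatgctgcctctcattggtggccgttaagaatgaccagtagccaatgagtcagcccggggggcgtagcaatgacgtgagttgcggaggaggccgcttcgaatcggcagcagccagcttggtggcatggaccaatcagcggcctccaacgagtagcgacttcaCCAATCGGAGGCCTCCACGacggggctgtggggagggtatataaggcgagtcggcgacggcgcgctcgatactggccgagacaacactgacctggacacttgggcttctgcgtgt
Herpud1: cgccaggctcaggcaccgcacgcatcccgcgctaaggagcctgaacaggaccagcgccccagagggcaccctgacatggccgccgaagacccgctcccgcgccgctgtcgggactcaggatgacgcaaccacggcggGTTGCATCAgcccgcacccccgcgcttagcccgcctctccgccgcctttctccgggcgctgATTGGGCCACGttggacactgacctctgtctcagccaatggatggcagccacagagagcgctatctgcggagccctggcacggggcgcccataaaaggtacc
Asns: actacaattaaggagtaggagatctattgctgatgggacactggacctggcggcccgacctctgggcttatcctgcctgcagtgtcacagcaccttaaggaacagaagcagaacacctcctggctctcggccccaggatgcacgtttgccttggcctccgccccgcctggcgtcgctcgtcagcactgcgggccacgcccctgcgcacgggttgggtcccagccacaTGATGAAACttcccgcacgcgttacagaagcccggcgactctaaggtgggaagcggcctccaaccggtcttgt

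**Figure D1:**
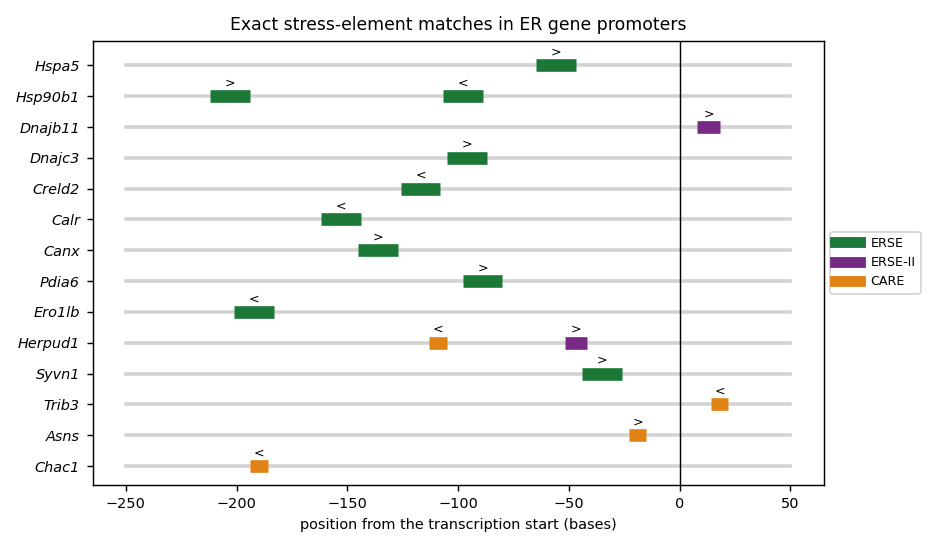
Exact matches to ERSE, ERSE-II and CARE in the promoters of the 14 genes that held at least 1, drawn by position in bases from the transcription start (0), with each grey line spanning the 300 bases searched. The symbol > marks a match on the strand of the gene and < one on the opposite strand. All ERSE matches lay upstream of the start, between -212 and -26.

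The 32-week libraries held 16484772 and 16111122 counts (replicates 3 and 4), against 12925869 and 14265485 counts in the 8-week libraries (replicates 1 and 2). The 35 genes took 0.456% and 0.508% of the counts in 32-week glands, against 0.496% and 0.513% in 8-week glands. Nkx2-3 itself had 21 and 29 counts at 32 weeks and 31 and 28 counts at 8 weeks, and reads from a part of the gene left in place would be counted. Muc19, the gel-forming mucin that marks the mucous acini of this gland, was at 20281 and 16721 CPM in 32-week glands, against 12021 and 13869 CPM in 8-week glands. Cell markers differed between libraries, and 8-week replicate 2 stood apart in several lists. The 10 B cell and plasma cell markers in the table summed to 537 and 833 CPM in 32-week glands, against 955 and 79.8 CPM in 8-week glands, and 8-week replicate 2 was the lowest library for all 7 of those tested. Jchain made up most of that sum. This library was also the lowest for 6 of the 7 macrophage markers tested, all 4 T cell and NK cell markers and 2 of the 3 mast cell markers. The T cell and NK cell markers summed to at most 10.6 CPM in any library, and the mast cell markers to at most 4.71 CPM. The 10 duct cell markers summed to 2379 and 1506 CPM in 32-week glands, against 2180 and 4822 CPM in 8-week glands, and 8-week replicate 2 was the highest library for 7 of the 9 tested. Klk1 made up most of the duct sum, with 2175 and 1309 CPM at 32 weeks against 2005 and 4327 CPM at 8 weeks. None of these B cell, plasma cell and duct markers was at 0 in every library. The sum of markers of neighbouring salivary glands was higher in both 8-week libraries, though Amy1 was high in 8-week replicate 1 alone. The 7 submandibular and parotid secretory markers summed to 174 and 129 CPM in 32-week glands, against 594 and 475 CPM in 8-week glands, among them Amy1 (2.005 and 1.63 CPM at 32 weeks against 152 and 2.002 CPM at 8 weeks) and Prol1 (10.02 and 0.407 CPM at 32 weeks against 196 and 203 CPM at 8 weeks). The 6 adipocyte markers summed to 30.001 and 39.6 CPM in 32-week glands, against 71.9 and 26.5 CPM in 8-week glands. The part of these markers in the age comparison was not tested. In whole glands fewer cells of a type cannot be told apart from less RNA per cell.

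P4hb and Xbp1 had the highest levels of the 35 genes, followed by Herpud1. Levels are given as TMM-scaled CPM (read counts divided by the library's scaled total) per kilobase of the longest protein-coding transcript, averaged over the 4 libraries with the SD between them, so that genes of different length can be compared. They spanned 701-fold, with the highest for P4hb at 336 ± 29.0 CPM per kilobase and the lowest for Trib3 at 0.48 ± 0.0738. Of the 35 genes, 6 exceeded 100 CPM per kilobase (P4hb, Xbp1, Herpud1, Pdia3, Calr and Hsp90b1). Against the 11487 tested genes with a length, 10 of the 35 were in the top 5% and 4 (Ern1, Ero1l, Chac1 and Trib3) were below the median gene, which stood at 3.59 CPM per kilobase. The level depends on the transcript length used. With the mean transcript length the span was 1069-fold, 7 genes exceeded 100 CPM per kilobase (the same genes and Asns), 9 were in the top 5% and 6 (also Atf6 and Ero1lb) were below the median gene. The level moved by over 1.5 times for 7 genes, to 2.94 CPM per kilobase for Ern1, 25.9 for Eif2ak3, 96.5 for Manf, 23.5 for Derl2, 128 for Asns, 189 for Pdia3 and 530 for P4hb. On that length Manf stood above Hspa5 (81.6) and Derl2 above Derl1 (19.3).

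**Figure D2:**
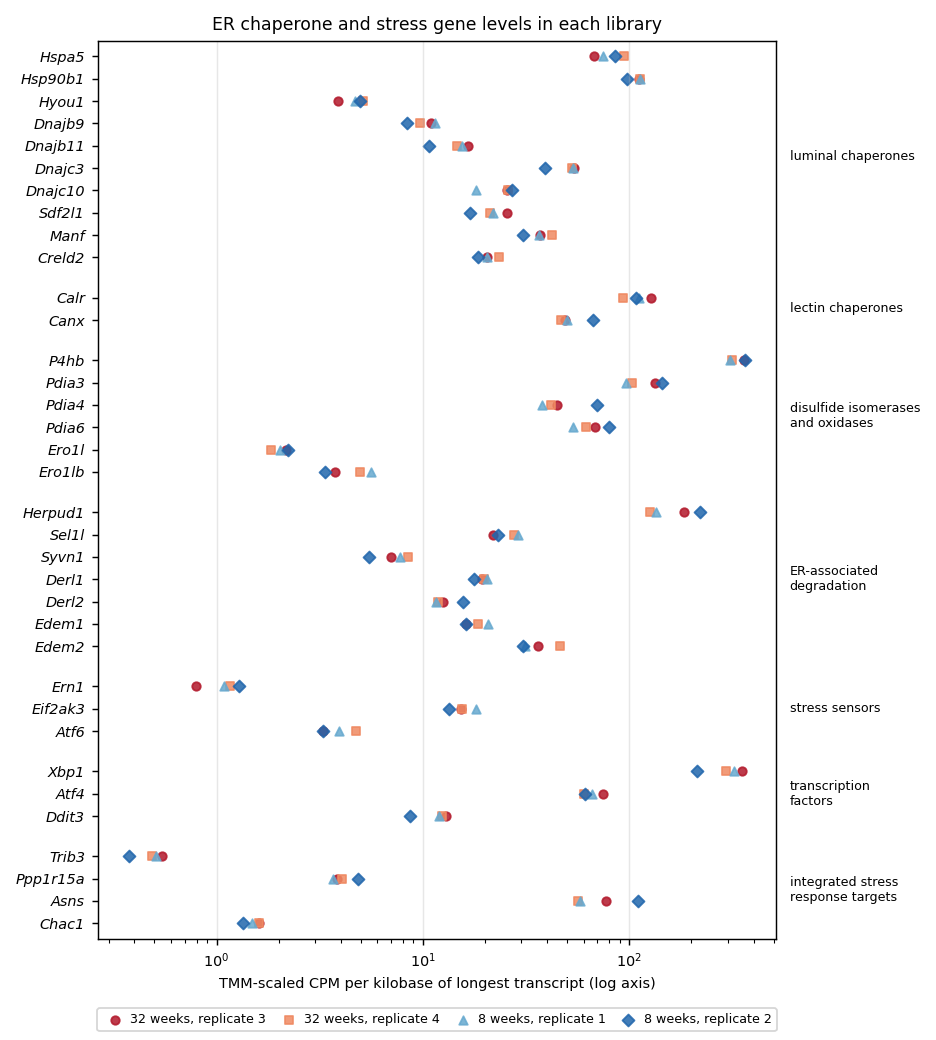
Level of each of the 35 genes in each library, in TMM-scaled CPM per kilobase on a log axis, grouped by function, with 1 symbol per library. The highest genes, P4hb and Xbp1, lie near 300 and the lowest, Trib3, below 1, while the 4 libraries of any one gene lie within a 2-fold range.

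Among the luminal chaperones, Hsp90b1, the ER member of the HSP90 family (chromosome 10, 86152954 to 86168254 of NCBIM37, the assembly of mm9, minus strand), was the highest at 109 ± 7.19 CPM per kilobase. Hspa5, the central HSP70-type chaperone (chromosome 2, 34627490 to 34632051, plus strand), stood at 80.3 ± 11.9 CPM per kilobase. The J-domain partners that hand chains to Hspa5 differed widely, with Dnajc3 at 49.7, Dnajc10 at 24.1, Dnajb11 at 14.4 and Dnajb9 at 10.1 CPM per kilobase. Hyou1, an exchange factor that resets Hspa5, was at 4.66 ± 0.552 CPM per kilobase, the lowest of the class. Manf, a small stress-induced luminal protein, was at 36.6, Sdf2l1, a partner of the Hspa5 and Dnajb11 complex, at 21.3, and Creld2, a stress-induced protein with isomerase activity, at 20.7 CPM per kilobase.

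In CPM, Hsp90b1 had 314 and 319 in the 32-week libraries against 318 and 276 in the 8-week libraries (log2 fold change 0.092, 95% interval -0.43 to 0.62). The values overlapped, and only 8-week replicate 2 was lower than the others by more than a few percent. Hspa5 had 176 and 247 CPM in 32-week glands, against 195 and 222 CPM in 8-week glands, so both 8-week values lay between the 32-week values (log2 fold change 0.019, 95% interval -0.57 to 0.60). Sdf2l1, with the largest positive fold change of the class, had 28.2 and 23.5 CPM in 32-week glands, against 24.2 and 18.7 CPM in 8-week glands (log2 fold change 0.27, SE 0.22). Its groups overlapped. Dnajb11, with the widest range of the class, had 41.7 and 36.8 CPM in 32-week glands, against 39 and 27 CPM in 8-week glands, and was low in 8-week replicate 2 alone. Dnajc3 showed the same order, with 279 and 273 CPM in 32-week glands, against 277 and 203 CPM in 8-week glands. Dnajc10, a disulfide reductase with a J domain, differed from these, with 103 and 104 CPM in 32-week glands, against 72.9 and 109 CPM in 8-week glands, and was low in 8-week replicate 1. Manf and Creld2 were higher in both 32-week libraries than in either 8-week library. Manf had 82.9 and 94.8 CPM in 32-week glands, against 82.4 and 68.9 CPM in 8-week glands, and Creld2 had 27.93 and 31.9 CPM in 32-week glands, against 27.89 and 25.3 CPM in 8-week glands. In both genes the lower 32-week value and the higher 8-week value lay within 1 CPM of each other.

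The lectin chaperones hold glycoproteins in the folding cycle. Calr, the soluble one, was at 110 ± 14.2 CPM per kilobase, and Canx, the membrane-bound one, at 53.0 ± 9.16. Calr had 279 and 204 CPM in 32-week glands, against 242 and 235 CPM in 8-week glands (log2 fold change 0.018, SE 0.24), with both 8-week values inside the 32-week range. Canx had 184 and 177 CPM in 32-week glands, against 189 and 252 CPM in 8-week glands (log2 fold change -0.29, 95% interval -0.84 to 0.26). It was the single gene of the 35 with both 32-week libraries below both 8-week libraries, and most of that gap came from 8-week replicate 2.

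Disulfide isomerases and oxidases had the largest class sum per length, at 576 CPM per kilobase over 6 genes. P4hb, the archetypal protein disulfide isomerase (chromosome 11, 120421612 to 120434567, minus strand), exceeded all but 1.04% of the tested genes with a length in level per kilobase. Pdia3, which works with Calr and Canx on glycoproteins, was at 119 ± 23.0 CPM per kilobase, Pdia6 at 65.7 ± 10.9 and Pdia4 at 48.5 ± 14.5. The oxidases that recharge them were far lower, with Ero1lb at 4.43 ± 1.06 and Ero1l at 2.06 ± 0.167 CPM per kilobase. The class thus ran from the highest gene of the 35 to 1 of the 4 below the median gene.

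P4hb had 1023 and 898 CPM in 32-week glands, against 882 and 1043 CPM in 8-week glands (log2 fold change -0.00314, SE 0.27). Pdia3 had 367 and 287 CPM in 32-week glands, against 268 and 401 CPM in 8-week glands. Pdia6 had 149 and 134 CPM in 32-week glands, against 117 and 172 CPM in 8-week glands. For each of these genes 8-week replicate 2 was the highest library and 8-week replicate 1 the lowest, with both 32-week libraries between them. Pdia4 had the same order and the widest range of the class, with 111 and 104 CPM in 32-week glands, against 93.2 and 173 CPM in 8-week glands (log2 fold change -0.31, 95% interval -1.02 to 0.40). The lower bound of its interval was past a 2-fold change. Ero1lb, the oxidase isoform known from secretory tissues such as pancreas, ran the other way, with 15.97 and 21.1 CPM in 32-week glands, against 23.8 and 14.2 CPM in 8-week glands. Its highest value was in 8-week replicate 1 and its lowest in 8-week replicate 2. Ero1l varied little, from 7.91 to 9.26 CPM at 32 weeks and from 8.71 to 9.53 CPM at 8 weeks.

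Among the degradation factors, Herpud1, a stress-induced membrane protein that helps assemble the retrotranslocation complex (chromosome 8, 96910338 to 96919277, plus strand), was by far the highest at 166 ± 44.2 CPM per kilobase. Edem2, a mannosidase that trims glycans of misfolded proteins, followed at 36.1 ± 7.28, its paralog Edem1 was at 17.8 ± 2.17, and Sel1l, the scaffold of the Syvn1 ubiquitin ligase, was at 25.3 ± 3.48 CPM per kilobase. The derlins, membrane proteins of the same complex, were at 19.3 ± 1.14 for Derl1 and 12.8 ± 1.87 for Derl2. Syvn1, the ligase, was the lowest of the class at 7.18 ± 1.30 CPM per kilobase.

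Herpud1 had 359 and 246 CPM in 32-week glands, against 263 and 431 CPM in 8-week glands (log2 fold change -0.20, 95% interval -0.95 to 0.55). It was high in 32-week replicate 3 and 8-week replicate 2 and low in the other library of each age. Edem2 had 83.1 and 106 CPM in 32-week glands, against 71.5 and 70.2 CPM in 8-week glands. The 32-week libraries were both higher, and the log2 fold change of 0.42 (SE 0.21, 95% interval -0.077 to 0.91) was the largest of the 35 genes in size, with an edgeR p of 0.0864 before and 0.999 after adjustment over all genes. Without 32-week replicate 4 it was 0.23. Syvn1 had 24.3 and 29.4 CPM in 32-week glands, against 26.9 and 18.9 CPM in 8-week glands, and was lowest in 8-week replicate 2. Sel1l had 137 and 174 CPM in 32-week glands, against 182 and 145 CPM in 8-week glands. Derl2 was highest in 8-week replicate 2, with 45.7 and 43.3 CPM in 32-week glands, against 42.2 and 57.2 CPM in 8-week glands, while Derl1 stayed between 55.9 and 64.3 CPM in all 4 libraries.

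Of the sensors, Eif2ak3 had the highest level and Ern1 the lowest. Eif2ak3, the kinase that slows translation, was at 15.6 ± 1.93 CPM per kilobase, Atf6, a membrane-tethered transcription factor, at 3.80 ± 0.688, and Ern1, the endonuclease that splices Xbp1 mRNA, at 1.08 ± 0.206. Ern1 had 5.53 and 8.03 CPM in 32-week glands, against 7.53 and 8.91 CPM in 8-week glands (log2 fold change -0.27, SE 0.27). Atf6 had 24.6 and 35.4 CPM in 32-week glands, against 29.1 and 24.4 CPM in 8-week glands. Eif2ak3 had 68.9 and 70.1 CPM in 32-week glands, against 81.8 and 60.6 CPM in 8-week glands. In all 3 genes the ages overlapped.

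Xbp1, which drives growth of the secretory apparatus, stood second among the 35 genes at 295 ± 60.3 CPM per kilobase (chromosome 11, 5420662 to 5425896, plus strand). Gene counts do not separate its spliced, active mRNA from the unspliced form. Xbp1 had 751 and 628 CPM in 32-week glands, against 683 and 451 CPM in 8-week glands (log2 fold change 0.28, 95% interval -0.40 to 0.97). Here 8-week replicate 2 was the lowest library by a wide margin, and without it the log2 fold change was 0.021. Atf4, the factor translated under stress, was at 65.3 ± 6.47 CPM per kilobase, with 128 and 104 CPM in 32-week glands, against 113 and 105 CPM in 8-week glands. Ddit3, a factor that rises in prolonged stress, was at 11.5 ± 1.97 CPM per kilobase. Its CPM were 11.5 and 11.1 at 32 weeks against 10.7 and 7.66 at 8 weeks, higher in both 32-week libraries, with a log2 fold change of 0.30 (95% interval -0.26 to 0.86). Without 8-week replicate 2 it was 0.084, and without 8-week replicate 1 it was 0.56.

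The integrated stress response targets divided into 1 abundant gene and 3 scarce ones. Asns, which makes asparagine, was at 75.3 ± 25.0 CPM per kilobase. Ppp1r15a, the phosphatase subunit that restarts translation, was at 4.10 ± 0.539, Chac1, an enzyme that degrades glutathione, at 1.51 ± 0.120, and Trib3, a pseudokinase, at 0.48 CPM per kilobase. Asns had 155 and 114 CPM in 32-week glands, against 116 and 222 CPM in 8-week glands (log2 fold change -0.33, 95% interval -1.11 to 0.46), a 1.94-fold range that was the widest of the 35 genes. It was highest in 8-week replicate 2, then in 32-week replicate 3. Without 8-week replicate 2 its log2 fold change was 0.22, and without 8-week replicate 1 it was -0.72. Trib3 rested on 16 and 17 counts at 32 weeks and 14 and 11 counts at 8 weeks, and its interval (-0.86 to 1.31) was the widest of these 4 genes. Chac1 had 38 and 45 counts at 32 weeks and 33 and 32 counts at 8 weeks, or 2.63 and 2.62 CPM against 2.44 and 2.21 CPM, higher in both 32-week libraries.

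The age comparison called none of the genes. With edgeR's quasi-likelihood test 0 of 35 reached an adjusted p of 0.05 (0% of all 12810 genes were called), and 0 of 35 had an unadjusted p under 0.05, against 1.36% of all genes. DESeq2 also called 0 of the 35 (0.0166% of all genes), as did limma-voom. Fold changes were positive for 19 (54.3%, beside 48.3% of all genes) and negative for 16, and the median log2 fold change of the 35 was 0.019, beside -0.011 over all genes tested. That median was -0.053 when libraries were scaled by total counts only. Both 32-week libraries lay above both 8-week libraries for 5 genes (Manf, Creld2, Edem2, Ddit3 and Chac1), a share of 14.3% beside 14.4% of all genes. They lay below for Canx alone, a share of 2.86% beside 14.2% of all genes. The 95% interval stayed within a 2-fold change either way for 32 of the 35 genes (91.4%, beside 66.8% of all genes). Interval width depends on counts, and 22 of the 35 genes averaged over 500 counts. These shares were not matched for counts. The genes whose interval passed a 2-fold change were Pdia4, Asns and Trib3.

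By function, the luminal chaperones had 9 of 10 fold changes positive (median log2 0.18), though 7 of 10 with total counts only, 8 of 10 with limma-voom and 7 of 10 without 8-week replicate 1. Leaving out 1 library moved their median to between 0.058 (8-week replicate 2 left out) and 0.27 (8-week replicate 1 left out). The disulfide isomerases and oxidases had 6 of 6 negative (median log2 -0.033). With limma-voom 4 of 6 were negative, with DESeq2 or with the most abundant 10 genes left out 5 of 6, and 2 of 6 without 8-week replicate 2 or without 32-week replicate 4. Their median ranged from -0.22 with 8-week replicate 1 left out to 0.17 with 8-week replicate 2 left out. The transcription factors had 3 of 3 positive (median log2 0.28), or 2 of 3 with total counts only or without 32-week replicate 3. For this class the median was 0.039, 0.16 and 0.56 when 8-week replicate 2, 32-week replicate 3 and 8-week replicate 1 were left out in turn. No gene of any class passed the test.

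**Figure D3:**
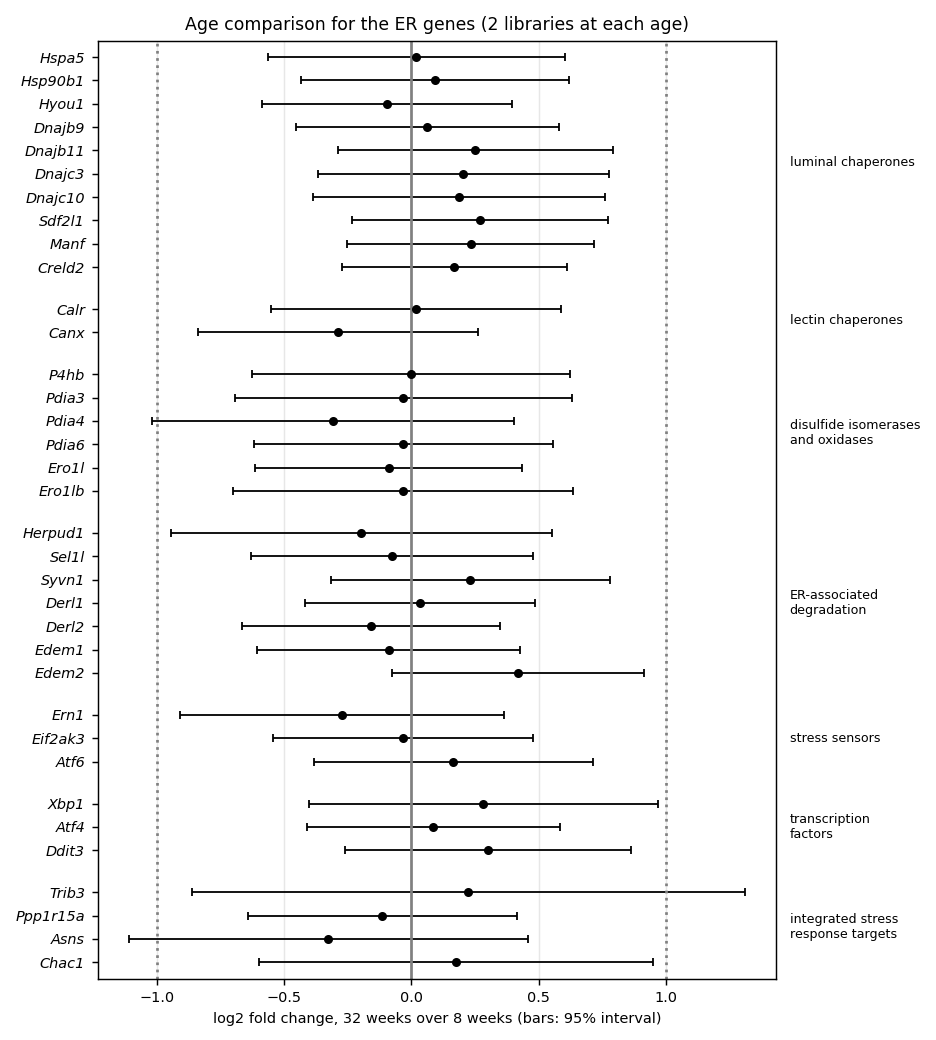
Log2 fold change of each gene, 32 weeks over 8 weeks, with a 95% interval derived from the edgeR test, grouped by function. Solid and dotted lines mark no change and a 2-fold change. Every interval crosses the line of no change, and those of Pdia4, Asns and Trib3 cross a dotted line.

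Differences between libraries of the same age exceeded those between ages. The 8-week libraries differed by more than the age means did for 30 of the 35 genes (85.7%, beside 72.8% of all genes). A difference between single libraries varies more than one between means of 2. The median absolute log2 difference was 0.19 for the pair at 32 weeks and 0.40 for the pair at 8 weeks, beside 0.14 between the age means of the same genes. Over all genes tested these values were 0.19, 0.36 and 0.18 in that order. The range from the lowest to the highest library was under 1.5-fold for 23 of the 35 genes (65.7%, beside 53.6% of all genes) and over 2-fold for none (0%, beside 17.8% of all genes). Ranges depend on counts as well, and these shares were not matched for counts.

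The library that departed most was 8-week replicate 2, here and over all genes tested. It was the highest or lowest library for 30 of the 35 genes (85.7%, beside 70% of all genes). It was the lowest library for 18 genes (51.4%, beside 35.3% of all genes) and the highest for 12 (34.3%, beside 34.7% of all genes). The share at the highest was thus close to that of all genes. The low genes included Xbp1, Dnajb11, Dnajc3, Dnajb9, Sdf2l1, Manf, Syvn1, Ero1lb and Ddit3. The high genes included Asns, Herpud1, Canx, Derl2, and P4hb, Pdia3, Pdia4 and Pdia6. Summed over each class, the disulfide isomerases and oxidases reached 1675 and 1452 CPM in 32-week glands, against 1392 and 1813 CPM in 8-week glands. The transcription factors summed to 891 and 743 CPM in 32-week glands, against 806 and 564 CPM in 8-week glands, and the luminal chaperones to 1091 and 1171 CPM in 32-week glands, against 1078 and 989 CPM in 8-week glands. Thus 8-week replicate 2 had the largest isomerase sum and the smallest transcription factor and luminal chaperone sums.

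**Figure D4:**
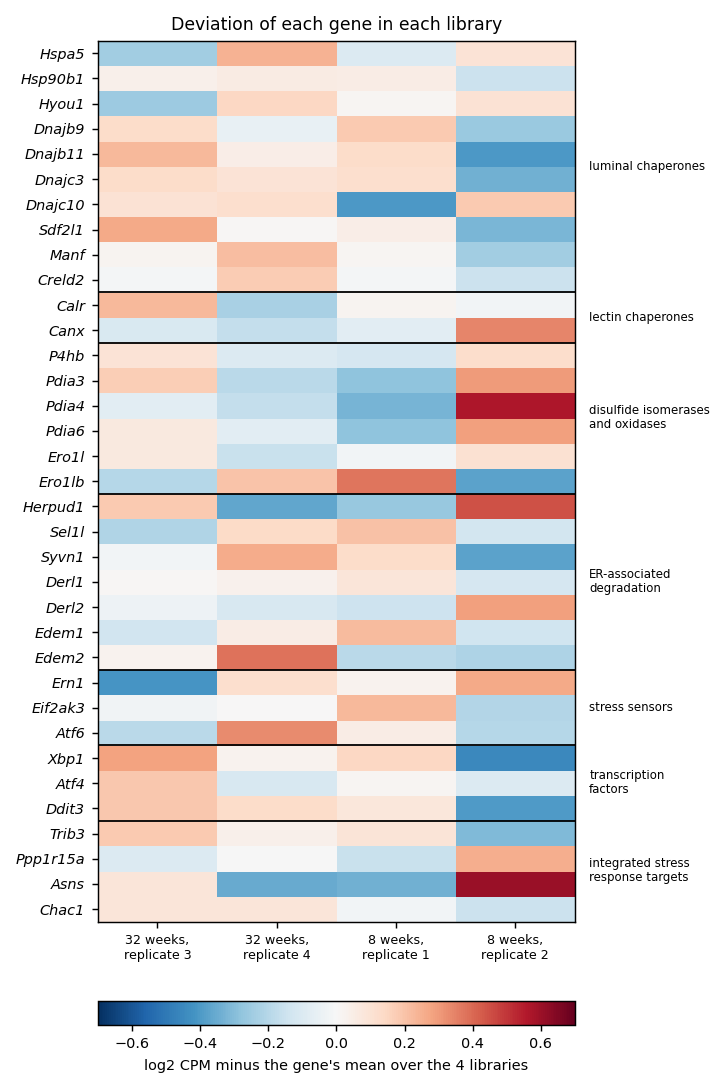
Deviation of each gene from its own mean over the 4 libraries, in log2 CPM, with 1 row per gene grouped by function and 1 column per library. In the column of 8-week replicate 2, Asns, Pdia4, Herpud1 and Canx are red (above the mean) while Xbp1, Ddit3, Dnajb11, Syvn1 and Ero1lb are blue (below it).

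Some cell type markers also differed in 8-week replicate 2. Jchain, the joining chain of secreted antibody made by plasma cells, had 512 and 799 CPM in 32-week glands, against 920 and 73.7 CPM in 8-week glands. It is most of the B cell and plasma cell sum given above, so it adds no separate signal. Agr2, a disulfide isomerase family member needed for mucin folding, had 49.6 and 49.7 CPM in 32-week glands, against 57.2 and 5.59 CPM in 8-week glands. Both were low in 8-week replicate 2. Of the 7 mucous acinar markers, which include Agr2, 5 were lowest in 8-week replicate 2. Their sums were 21425 and 17901 CPM in 32-week glands, against 13258 and 14558 CPM in 8-week glands. Most of the sum was Muc19, and it was lowest in 8-week replicate 1. The 6 serous demilune markers summed to 462175 and 184340 CPM in 32-week glands, against 161745 and 348483 CPM in 8-week glands. That sum was higher in 32-week replicate 3 and 8-week replicate 2 than in the other library of each age. The same held for Herpud1, Asns, P4hb, Pdia3, Pdia4 and Pdia6, among others. Of the 35 genes, 18 were lowest in 8-week replicate 2. Plasma cells and acinar cells are both known for high Xbp1 and ER chaperone expression. The part of these cells in the library differences was not tested.

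**Figure D5:**
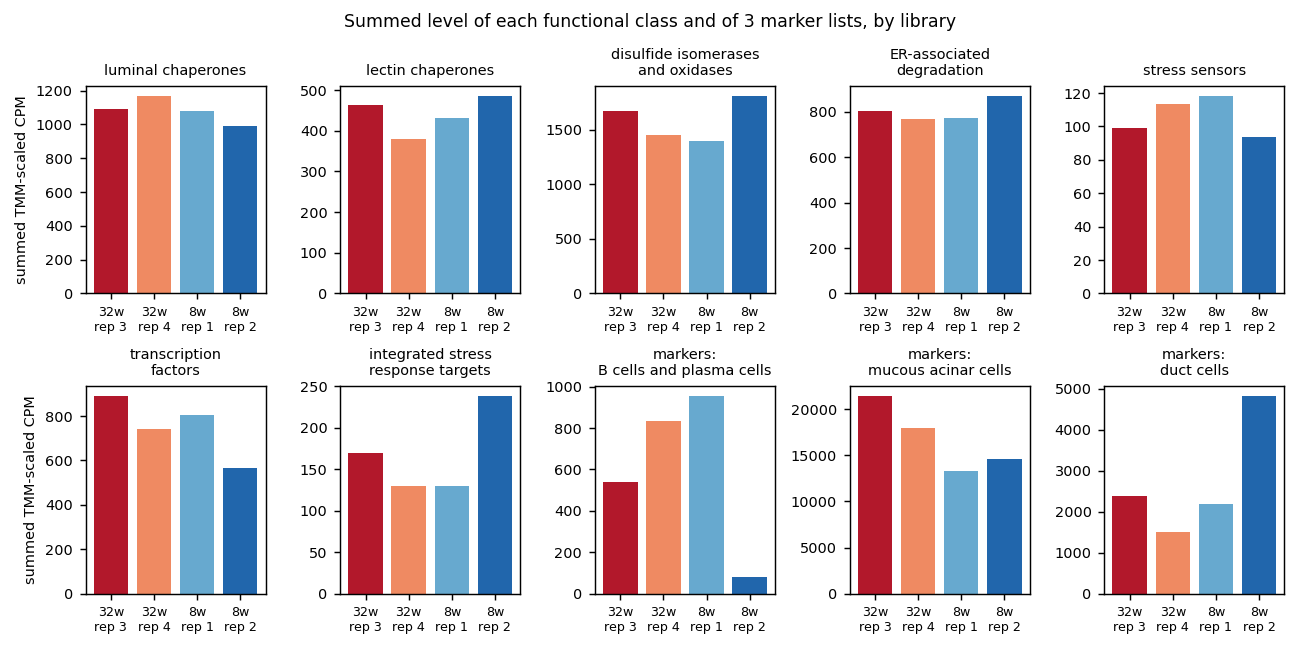
Summed TMM-scaled CPM of each functional class and of 3 marker lists (plasma and B cells, mucous acini, ducts), with 1 bar per library and each panel on its own axis from 0. In 8-week replicate 2 the transcription factor sum is the lowest at 564 CPM, the isomerase sum the highest at 1813 CPM, and the B cell and plasma cell marker sum 79.8 CPM.

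The promoter elements shown above were set beside the age and library values of the genes that hold them. The 9 genes with an ERSE had a median log2 fold change of 0.019 (range -0.29 to 0.23, 6 positive), beside -0.018 for the 22 matched genes without one (range -0.33 to 0.42, 10 positive). In 8-week replicate 2, 5 of the 9 were lowest and 2 highest, beside 10 and 10 of the 22. The 4 genes with a CARE were also divided there, with Asns and Herpud1 highest and Trib3 and Chac1 lowest. By level, the ERSE genes had a median of 53.0 CPM per kilobase and the others 19.6.

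None of the other ER genes was called either. Of 63 further symbols listed, 57 were tested, and their median log2 fold change was 0.023. None passed edgeR's test at 0.05 after adjustment, or before it, where 1.36% of all genes did. Both 32-week libraries were above both 8-week libraries for 10 of the 57 and below for 6. Over all genes tested the shares were 14.4% above and 14.2% below. The 3 with the smallest p were Prkcsh, Fkbp14 and Cth. Prkcsh, the regulatory subunit of glucosidase II, had 49.4 and 43.6 CPM in 32-week glands, against 38.6 and 31.3 CPM in 8-week glands (log2 fold change 0.41, 95% interval -0.064 to 0.89). Fkbp14, a prolyl isomerase of collagen folding, had 3.04 and 3.14 CPM in 32-week glands, against 5.46 and 4.00 CPM in 8-week glands (log2 fold change -0.61, 95% interval -1.33 to 0.11). Cth, an enzyme of cysteine synthesis and an Atf4 target, had 9.06 and 8.55 CPM in 32-week glands, against 10.3 and 13.8 CPM in 8-week glands (log2 fold change -0.46, 95% interval -1.001 to 0.087). All 3 had an edgeR adjusted p of 0.999.

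Counts of 9 of the 35 genes could include reads of a neighbour, since their exons overlap those of another gene and the counting is not described. The overlap exceeded 2% of exonic bases for 4 of them. It was largest for Hsp90b1, where 10.3% of exonic bases lie opposite 1810014B01Rik and 5.38% are shared with gene models on its own strand. Ddit3 overlaps Mars on 4.73% of its exonic bases, Manf overlaps Vprbp on 4.14%, and Derl2 overlaps Mis12 on 2.87%.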

How the data were processed

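The authors deposited raw read counts, 1 whole number per symbol and library, without normalization. Per the submitters' processing notes, reads were aligned with STAR to mm9. The STAR release and the counting (tool, gene models, strand, multiple hits) were not given in the sources used here. Libraries were TruSeq, from 1 ug of Trizol-extracted total RNA of frozen glands, per the labels' protocols. Replicates 1 to 4 are named as in the labels. Separate animals are not stated, so a p-value reflects only the spread between libraries, which may be technical.

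Ages were compared in R 4.3.3 with edgeR 4.0.16 (quasi-likelihood), TMM scaling, its own filter on low counts and age as the sole term. Benjamini-Hochberg adjustment ran over the 12810 genes kept, at 0.05. CPM are counts relative to the TMM-scaled library size, with means ± SD over libraries. Alternatives were RLE factors, total counts, the most abundant 10 genes left out, no filter, at least 1 CPM in 3 libraries, DESeq2 1.42.0, limma-voom 3.58.1 and each library left out. For a single value the smallest exact permutation p is 0.333. Scripts were tested on simulated data. Library-to-library differences used log2(CPM + 0.1). Lengths and positions came from GENCODE vM1 on NCBIM37, and 89.7% of tested genes had a length. Genes were named by role: the highest level, the largest changes and the widest range, then the others. The genes and lists were chosen with earlier results of these data known.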

Additional observations from a re-analysis of the deposited data

How the results depend on the processing

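None of the 35 genes was called under any of the 11 alternatives. Their median log2 fold change lay between -0.053 and 0.14, and the lowest value, with total counts only, was the single negative one. The number of genes called among all tested was 0 in the edgeR test reported, 10 with total counts only, 7 with no low-count filter and 3 with DESeq2. With 1 library left out it ranged from 6 to 285, the highest without 8-week replicate 1, where 8 of the 35 genes (22.9%, beside 21.7% of all genes) had an unadjusted p under 0.05 and the smallest adjusted p was 0.0842. That fit leaves 1 library at 8 weeks, which is assumed to vary like the others. No gene of the 35 was past the threshold, so a change of sign concerns values that were not called. Of the 35, 14 kept their sign in all alternatives that tested them (the filter of 1 CPM in 3 libraries left out Trib3): Canx, Chac1, Creld2, Ddit3, Dnajb11, Dnajc3, Edem2, Ern1, Hsp90b1, Manf, Sdf2l1, Syvn1, Trib3 and Xbp1. With 1 library left out some of these came close to 0, with Dnajc3 at 0.00101, Hsp90b1 at 0.00187, Syvn1 at 0.00708, Dnajb11 at 0.016, Xbp1 at 0.021, Trib3 at 0.022, Ern1 at -0.025 and Canx at -0.058. With total counts only the log2 fold change turned to -0.042 for Hspa5, -0.035 for Dnajb9, -0.090 for Calr, -0.053 for Derl1 and -0.016 for Atf4. For P4hb it was 0.00309 with the most abundant 10 genes left out, 6.55e-05 with DESeq2 and 0.00175 with limma-voom, which also gave -0.000813 for Hspa5 and 0.00459 for Ero1lb. With each library left out in turn it spanned -0.24 to 0.25 for Hspa5, -0.074 to 0.52 for Dnajc10, -0.36 to 0.39 for Ero1lb, -0.25 to 0.10 for Sel1l, -0.25 to 0.10 for Edem1, -0.23 to 0.20 for Eif2ak3, -0.14 to 0.30 for Dnajb9, -0.12 to 0.13 for P4hb, -0.29 to 0.29 for Pdia3, -0.69 to 0.21 for Pdia4, -0.28 to 0.29 for Pdia6, -0.51 to 0.21 for Herpud1, -0.059 to 0.14 for Derl1, -0.36 to 0.083 for Derl2, -0.30 to 0.12 for Ppp1r15a, -0.72 to 0.22 for Asns, -0.31 to 0.096 for Hyou1, -0.22 to 0.23 for Calr, -0.065 to 0.23 for Atf4, -0.20 to 0.026 for Ero1l and -0.12 to 0.41 for Atf6. The cause was not tested. With the mean transcript length in place of the longest, the level per kilobase moved by more than its SD for 14 of the 35 genes. No paired analysis was possible because the ages share no replicate number. Depth limits Trib3, with at least 11 counts a library, most.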

Other observations

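Nupr1, a stress-induced chromatin protein and one of the 57 further ER and stress genes tested, was singled out after its values were seen. It had 6294 and 8688 CPM in 32-week glands, against 5914 and 3977 CPM in 8-week glands, above each of the 35 genes in CPM in every library (log2 fold change 0.60, SE 0.41, edgeR adjusted p = 0.999). Both 32-week libraries were higher. Txndc5, a disulfide isomerase chosen in the same way, had 473 and 416 CPM in 32-week glands, against 441 and 283 CPM in 8-week glands, lowest in 8-week replicate 2, where P4hb, Pdia3, Pdia4 and Pdia6 were highest. Creb3l1, a secretory transcription factor and mucous acinar marker, had 700 and 700 CPM in 32-week glands, against 745 and 394 CPM in 8-week glands.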
